A study of Homo sapiens with 8 samples.

Results

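Keratins are the intermediate filament proteins of epithelial cells, and 10 of them are described here by the messenger RNA of their genes. They were taken by name: the basal keratins KRT5, KRT14 and KRT15, the stress keratins KRT6A, KRT6B, KRT16 and KRT17, and the simple keratins KRT7, KRT8 and KRT18. All 10 are among the 15852 genes of the count table, and 9 passed the filter on low counts that left 11841 genes for testing. KRT6B did not pass. RNA came from KYSE150, an established line of esophageal squamous cell carcinoma, with 4 libraries of the control group and 4 libraries of the group in which a short hairpin RNA, labelled ShBOLA3-L, was directed at the BOLA3-L isoform of BOLA3. The labels list no other treatment for either group. They do not say how many hairpins or clones were used, nor whether each library came from its own culture, and p-values therefore measure only the spread between these libraries, which may be technical.

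A keratin filament is built from pairs of a type I (acidic) and a type II (basic) chain. KRT5 pairs with KRT14 in the basal cells of stratified epithelia such as the lining of the esophagus, and KRT15 is another type I chain of basal cells. KRT6A, KRT6B, KRT16 and KRT17 are made in stratified epithelia after wounding and other stress, and in many squamous cancers. KRT8 and KRT18 are the pair of single-layered epithelia and are also present in many carcinomas, and KRT7 is a type II chain of simple and ductal epithelia. The type II genes lie together on chromosome 12 and the type I genes on chromosome 17, except KRT18, a type I gene placed at the edge of the type II cluster. On the GRCh38 build (RefSeq) the chromosome 12 genes are KRT7 (52233243 to 52255853), KRT6B (52446651 to 52452146), KRT6A (52487176 to 52493257), KRT5 (52514575 to 52520394), KRT8 (52897191 to 52949860) and KRT18 (52948855 to 52952906). The chromosome 17 genes are KRT15 (41513745 to 41518890), KRT14 (41582279 to 41586895), KRT16 (41609778 to 41612767) and KRT17 (41619442 to 41624575).

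Some neighbouring keratin genes are close copies of each other, and this bears on how far a read can be assigned to 1 of them. Each transcript was divided into windows of 75 bases, taken every 25 bases, and a window counted as shared when it also occurred in a transcript of another gene (GENCODE v29). A window is shorter than a read of 150 bp, and the reads came in pairs. The percents are therefore not shares of reads that match several genes. KRT6A shared 22 of its 90 windows (24.4%), all 22 of them with KRT6C, another KRT6 gene, and 15 with KRT6B. KRT6B shared 31 of 89 windows (34.8%). The coding sequences of KRT6A and KRT6B, 1695 bases each, differ at 43 positions (97.5% identity) and those of KRT6A and KRT6C at 35 (97.9%). The 90 bases with the most differences between KRT6A and KRT6B, coding positions 656 to 745, are printed here. They hold 10 of the 43 differences, so the genes are easiest to tell apart in this stretch. Capitals in KRT6A mark bases that differ from KRT6B, and capitals in KRT6B and KRT6C mark bases that differ from KRT6A.
KRT6A: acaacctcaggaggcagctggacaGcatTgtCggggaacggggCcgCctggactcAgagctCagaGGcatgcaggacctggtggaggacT
KRT6B: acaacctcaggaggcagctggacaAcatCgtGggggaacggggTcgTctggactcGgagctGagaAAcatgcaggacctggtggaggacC
KRT6C: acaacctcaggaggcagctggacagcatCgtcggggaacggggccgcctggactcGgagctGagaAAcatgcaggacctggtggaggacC
In this stretch KRT6C differs from KRT6A at 6 bases. Elsewhere KRT6A and KRT6C are identical over a run of 349 bases and KRT6A and KRT6B over a run of 269, both longer than a read of 150 bp.

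Among the type I chains, KRT14 and KRT16 have the longest identical run, 158 bases, at coding positions 310 to 467 of KRT14 and 316 to 473 of KRT16. It is printed once for both genes. The matching stretch of KRT17, coding positions 217 to 374, is set under it, with capitals at the 18 bases that differ.
KRT14 and KRT16: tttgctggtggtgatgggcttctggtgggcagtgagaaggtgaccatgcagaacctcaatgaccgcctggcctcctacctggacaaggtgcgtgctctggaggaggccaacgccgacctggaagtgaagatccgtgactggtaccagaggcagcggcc
KRT17: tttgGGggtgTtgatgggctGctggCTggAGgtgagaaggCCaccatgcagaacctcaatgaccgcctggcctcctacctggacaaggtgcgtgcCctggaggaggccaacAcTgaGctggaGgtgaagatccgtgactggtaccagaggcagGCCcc
The longest run that KRT17 shares with KRT14 is 59 bases, and with KRT16 it is 61, both shorter than a window. KRT14 shared 8 of 64 windows (12.5%), 4 of them with KRT16 and the rest only with pseudogenes of KRT16. KRT16 shared 6 of 63 (9.52%), 3 of them with KRT14. As a part of their own windows, the other members shared little with working keratin genes. KRT5 shared 2 of 99 windows with the KRT6 genes, and KRT15 and KRT7 shared 0. The longest coding run that KRT5 shares with KRT6A is 104 bases. In control replicate 1, KRT5 had 97191 counts against 287 for KRT6A, and KRT14 had 2690 against 293 for KRT16. A small part of KRT5 reads would thus be large beside the KRT6A count. Whether reads from KRT5 or KRT14 entered the counts of KRT6A or KRT16 was not tested. The 12 shared windows of KRT8 (18.5% of 65), the 3 of KRT17 (5.17%) and the 3 of KRT18 (5.56%) matched pseudogenes alone. How the authors' counting treated reads that match several genes is not given in the sources used here.

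**Figure D1:**
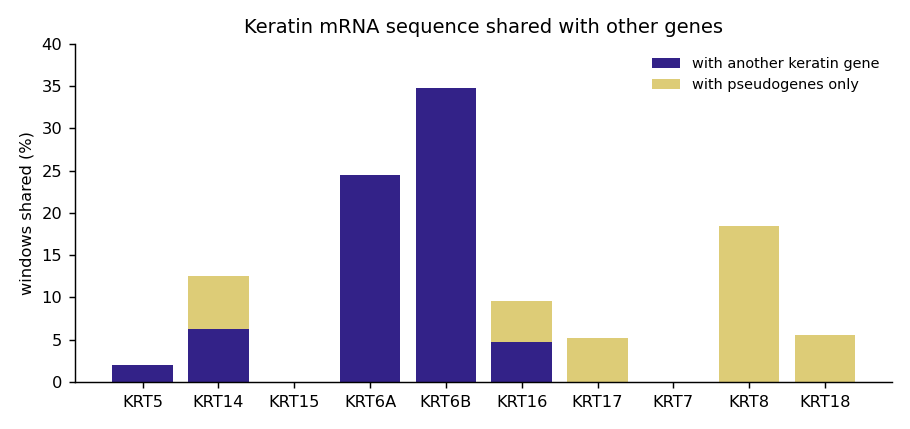
Percent of the 75-base windows of each keratin transcript (vertical axis) that also occur in a transcript of another gene, split into windows shared with another keratin gene and windows shared with pseudogenes only. KRT6A (24.4%) and KRT6B (34.8%) stand highest, and KRT15 and KRT7 are at 0.

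The libraries held 31178036 to 35147860 counts. Levels are given as CPM, counts scaled to a fixed library size, on library sizes scaled by the trimmed mean of M-values (TMM), where 3 counts are worth 0.0851 to 0.0969 CPM. The targeted gene was lower in every knockdown library. BOLA3, a mitochondrial protein used in iron-sulfur cluster delivery, held 21.6, 19.1, 20.5 and 21.8 CPM in the control libraries (replicates 1 to 4, in this order throughout) and 6.06, 6.64, 6.33 and 7.29 CPM in the knockdown libraries (log2 change -1.66, SE 0.0821, edgeR quasi-likelihood test, Benjamini-Hochberg adjusted p = 6.9e-11). Across the 70 ways to assign the libraries, a two-sided exact permutation test gave p = 0.0286, the smallest that 4 against 4 allows. Counts are per gene, so the isoforms of BOLA3 were not separated. On the second principal component (14.4% of the variance) BOLA3-L knockdown replicate 1 stood at 20.1 and the other knockdown libraries between -10.1 and -4.81. In that replicate the deviation of genes from the group mean ran with the GC content of the transcript (Spearman's rho -0.70 across genes, against 0.24 to 0.54 in the other knockdown libraries and -0.095 to 0.13 in the controls). The knockdown mean includes replicate 1, so its trend by itself pushes the values of the other knockdown libraries the opposite way. The keratin transcripts have 55.8% to 62.9% GC. Results are therefore given with and without that library.

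Of the 9 keratins tested, 6 fell in the knockdown and 0 rose. The 6 are all 3 basal keratins and the 3 stress keratins with enough counts to test. Over all 11841 genes tested, 15.6% were lower and 15.0% were higher. The members were chosen with earlier results of these data known, so these shares are set beside them as description only. None of the 3 simple keratins passed the test, and none had an unadjusted p under 0.05 in this fit; DESeq2 also called 0 of them. In each of the 6 that fell, every knockdown library lay below every control library, as was the case for 15.6% of all tested genes. The 95% intervals of the 6 log2 changes, the highest of which ends at -0.16 (KRT15), lay below those of the 3 simple keratins, the lowest of which starts at -0.11 (KRT7). Without BOLA3-L knockdown replicate 1, the counts were 6 lower and 2 higher (KRT8 and KRT18), against 21.5% and 21.2% of all genes tested.

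**Figure D2:**
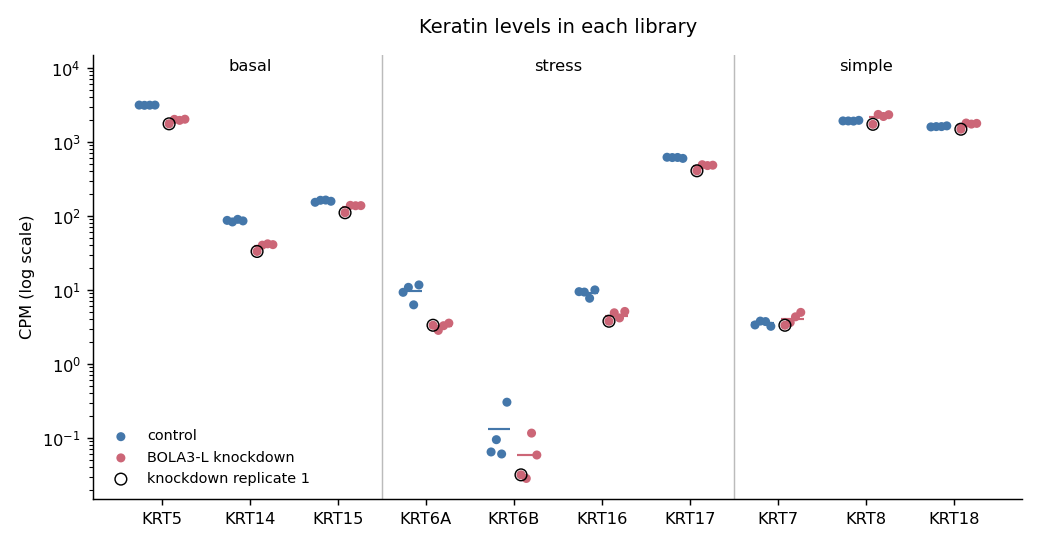
Level of each keratin in each library in CPM (vertical axis, log scale), with basal, stress and simple keratins side by side. Points are libraries, horizontal lines are group means (n = 4) and black rings mark BOLA3-L knockdown replicate 1. The groups do not overlap for KRT5, KRT14, KRT15, KRT6A, KRT16 and KRT17 and overlap for KRT6B, KRT7, KRT8 and KRT18.

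KRT5, the type II chain of basal cells, was the most abundant of the 10 in the controls. The control libraries held 3141, 3117, 3129 and 3140 CPM and the knockdown libraries 1752, 2015, 1953 and 2023 CPM. The controls lay within a narrow band and all 4 knockdown libraries far below it. The group means were 3132 ± 11.2 and 1936 ± 126 CPM (SD, n = 4 each), which leaves 61.8% of the control level. This is a log2 change of -0.69 (SE 0.0383, edgeR adjusted p = 2.3e-10), or -0.65 when replicate 1 is left out.

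KRT14, the type I partner of KRT5, had the largest proportional fall of the basal keratins. In the controls it stood at 86.9, 82.8, 89.8 and 85.5 CPM and in the knockdown libraries at 33.1, 40.2, 41.9 and 40.9 CPM. No knockdown library reached the lowest control, and replicate 1 was again the lowest. The means of 86.2 ± 2.91 and 39.0 ± 4.03 CPM (SD, n = 4 each) give 45.2% of the control level, a log2 change of -1.14 (SE 0.0614, edgeR adjusted p = 1.5e-10). Without replicate 1 the log2 change was -1.07.

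KRT15, the other type I chain of basal cells, fell least of the 6. Its levels were 152.6, 162.5, 163.6 and 157.6 CPM in the controls and 110.3, 138.8, 137.1 and 137.6 CPM in the knockdown libraries. Replicates 2 to 4 of the knockdown lay close together, all under the lowest control, and replicate 1 well below them. The fit gave a log2 change of -0.28 (SE 0.0588, edgeR adjusted p = 0.00157), from 159 ± 5.05 to 131 ± 13.8 CPM (SD, n = 4 each). Without replicate 1 it was -0.21 (SE 0.0307, edgeR adjusted p = 3.2e-07). KRT15 shares no window with another gene. The KRT15 transcript searched has 5237 bases, of which 1371 are coding, and is longer than the 1993 bases the authors used.

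The stress keratins covered a wide span of levels. KRT17, a type I chain of wounded skin and of many squamous tumours, was by far the most abundant of them. It stood at 619.5, 613.7, 615.6 and 598.1 CPM in the controls and at 406.6, 491.3, 478.1 and 483.9 CPM in the knockdown libraries, with no overlap. The means were 612 ± 9.42 and 465 ± 39.3 CPM (SD, n = 4 each), a log2 change of -0.40 (SE 0.0467, edgeR adjusted p = 4.1e-06). It was -0.34 without replicate 1, the lowest of the 4 knockdown libraries.

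KRT6A and KRT16, a type II and a type I chain that are induced together in wounded skin, were present at a small part of the KRT17 level. KRT6A was read 287, 343, 207 and 384 times in the control libraries and 105, 100, 113 and 121 times in the knockdown libraries, or 9.27, 10.8, 6.28 and 11.7 CPM against 3.33, 2.84, 3.28 and 3.56 CPM. The controls varied far more than the knockdown libraries, and the lowest control still lay above the highest knockdown library. KRT6A had the largest log2 change of the members tested, -1.55 (SE 0.161, 95% interval -1.89 to -1.21, edgeR adjusted p = 8.5e-07), from 9.51 ± 2.37 to 3.25 ± 0.302 CPM (SD, n = 4 each). On log2(FPKM + 1), a scale that understates the change of low genes, limma put it at -1.05. KRT16 was at 9.47, 9.35, 7.71 and 9.998 CPM in the controls and at 3.77, 4.91, 4.18 and 5.12 CPM in the knockdown libraries. Its groups did not overlap, and its level after knockdown was 49.2% of control (log2 change -1.02, SE 0.120, edgeR adjusted p = 4.1e-06). Replicate 1 of the knockdown was not set apart from the other 3 in KRT6A, and without it the changes of KRT6A and KRT16 were -1.56 and -0.94.

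KRT6B, the close copy of KRT6A, was hardly present. It had 2, 3, 2 and 10 counts in the control libraries and 1, 1, 4 and 2 in the knockdown libraries. The groups overlap, and 7 of the 8 libraries are near the floor of 3 counts, so no difference was detectable at this depth. KRT6C, which is not among the 10, had 3, 7, 7 and 6 counts in the controls and 4, 2, 21 and 5 in the knockdown libraries.

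The counts of close paralogs were also summed and tested as 1 row. Windows shared with pseudogenes, or by the KRT6 genes with KRT5, lie outside these sums. The KRT6 sum therefore does not cover reads that KRT5 and the KRT6 genes could share. KRT6A, KRT6B and KRT6C together went from 9.82 ± 2.45 to 3.54 ± 0.467 CPM (SD, n = 4 each), a log2 change of -1.47 (SE 0.163, edgeR adjusted p = 2.4e-06), close to that of KRT6A alone. KRT14 and KRT16, the type I chains here that share windows with each other, together went from 95.4 ± 2.31 to 43.5 ± 4.47 CPM (-1.13, SE 0.0598, edgeR adjusted p = 1.3e-10), a sum that is mostly KRT14; this pair was summed after the data were seen. KRT14, KRT16 and KRT17 together went from 707 ± 9.96 to 508 ± 43.6 CPM, a log2 change of -0.48 (SE 0.0470, edgeR adjusted p = 5.2e-07). The last sum is mostly KRT17, so its value is nearer to that of KRT17 (-0.40) than to those of KRT14 (-1.14) and KRT16 (-1.02). All 3 sums fell. Since KRT14 and KRT17 make up most of the type I sums, these say little of KRT16 by itself.

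**Figure D3:**
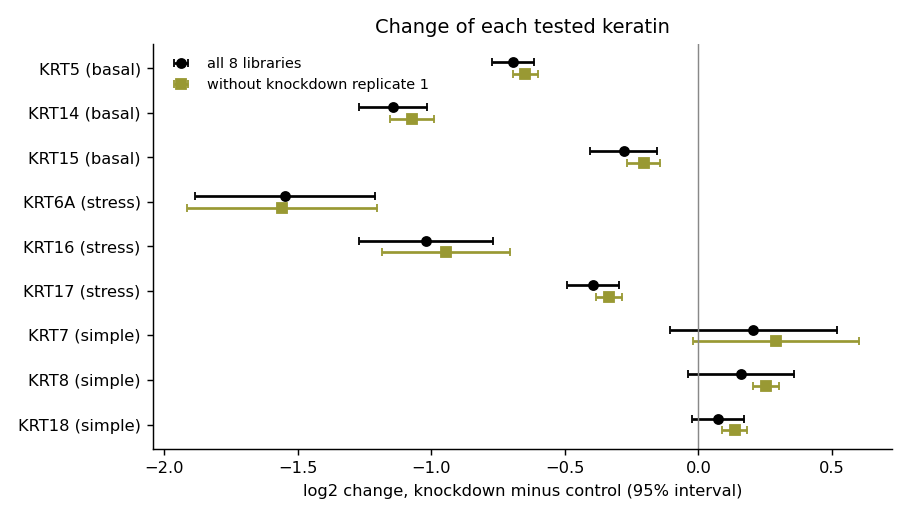
Log2 change of each tested keratin, knockdown minus control (horizontal axis), with 95% intervals, from all 8 libraries (black circles) and without BOLA3-L knockdown replicate 1 (squares). The 6 basal and stress keratins lie below 0 in both fits; the intervals of KRT8 and KRT18 cross 0 in the first and lie above it in the second (0.21 to 0.30 and 0.09 to 0.18).

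KRT8 and KRT18, the pair of simple epithelia, were among the most abundant of the 10, and neither passed the test with all libraries. KRT8 had 1919, 1917, 1907 and 1953 CPM in the controls against 1726, 2348, 2202 and 2327 CPM in the knockdown libraries. Replicate 1 of the knockdown was below all controls and the other 3 were above all controls, so the groups overlap. The means were 1924 ± 20.0 and 2151 ± 290.4 CPM (SD, n = 4 each), with a log2 change of 0.16 (SE 0.0869, 95% interval -0.04 to 0.36, edgeR adjusted p = 0.203). Without replicate 1 it was 0.25 (SE 0.0238, edgeR adjusted p = 1.8e-12), so the call for KRT8 rests on whether that library is included.

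KRT18, a type I chain, had the same order of knockdown libraries as KRT8. Its levels were 1592, 1608, 1608 and 1645 CPM in the controls and 1482, 1797, 1738 and 1777 CPM in the knockdown libraries, again with replicate 1 below and the other 3 above all controls. From 1613 ± 22.3 to 1698 ± 146 CPM (SD, n = 4 each) this is a log2 change of 0.07 (SE 0.0465, 95% interval -0.02 to 0.17, edgeR adjusted p = 0.247). Without replicate 1 it was 0.14 (SE 0.0231, edgeR adjusted p = 4.2e-06). With offsets corrected for transcript GC content and all 8 libraries, KRT18 was called higher (0.07, edgeR adjusted p = 0.0476) and KRT8 was not (0.15, adjusted p = 0.205).

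KRT7, which in simple epithelia can pair with KRT18, was low in this line. It held 3.36, 3.79, 3.73 and 3.22 CPM in the controls and 3.33, 3.63, 4.33 and 4.97 CPM in the knockdown libraries (104 to 123 counts and 105 to 169 counts). The 2 ranges overlap. The log2 change of 0.21 (SE 0.149, 95% interval -0.11 to 0.52, edgeR adjusted p = 0.319) did not pass the test, nor did the 0.29 without replicate 1 (adjusted p = 0.128). In RNA from a whole culture, a smaller share of cells that express a keratin and less of its RNA per cell cannot be told apart.

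Levels of different keratins were compared per length, in the authors' FPKM, which divides each count by the length of the gene and the size of the library. In the controls the order from the top was KRT5 (1389 ± 3.46), KRT18 (1070.0 ± 15.1), KRT8 (961 ± 9.96), KRT17 (400.3 ± 6.09), KRT15 (79.2 ± 2.59), KRT14 (52.3 ± 1.72), KRT16 (5.47 ± 0.592), KRT6A (4.09 ± 1.02), KRT7 (1.31 ± 0.105) and KRT6B (0.0565 ± 0.0501 FPKM; SD, n = 4 each). The ranges of KRT16 and KRT6A overlapped between libraries, and those of the other neighbours did not. Within each control library KRT16 was above KRT6A (KRT6A over KRT16 0.585 to 0.838). In the knockdown KRT18 (1142 ± 94.6 FPKM) and KRT8 (1089 ± 144 FPKM) came before KRT5 (871 ± 53.9 FPKM), followed by KRT17, KRT15, KRT14, KRT16, KRT7 (1.54 ± 0.275 FPKM), KRT6A (1.42 ± 0.133 FPKM) and KRT6B. Here the ranges of KRT18 and KRT8 overlapped between libraries, as did those of KRT8 and KRT5 and, lower down, KRT7 and KRT6A. Within each knockdown library KRT18 was above KRT8 (KRT8 over KRT18 0.877 to 0.986) and KRT8 above KRT5 (ratio 1.11 to 1.31). KRT7 was above KRT6A in every knockdown library but replicate 1 (1.26 against 1.46 FPKM). The order of KRT8 and KRT18 depends on the gene lengths the authors used (1988 and 1497 bases), since in CPM, without length, KRT8 was above KRT18 in every library.

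The balance between the classes is a description of values already given, with no test of its own. The simple keratins held 51.0%, 51.3%, 51.1% and 51.8% of the summed FPKM of the 10 in the controls and 62.2%, 64.3%, 63.8% and 64.1% in the knockdown libraries. The groups lay far apart. In this measure replicate 1 of the knockdown was the lowest of its group, but much nearer to the other 3 than to any control. The basal keratins went from 38.4% ± 0.183 to 27.5% ± 0.846 and the stress keratins from 10.3% ± 0.184 to 8.93% ± 0.132 (SD, n = 4 each). Nearly all of the stress share was KRT17 (400.3 FPKM in the controls, beside 5.47 for KRT16 and 4.09 for KRT6A). It therefore says little of KRT6A and KRT16. Summed FPKM of basal and stress keratins was 1925 to 1934 in the controls and 1144 to 1328 in the knockdown libraries, and that of the simple keratins was 2013 to 2067 and 1881 to 2390.3. The first sums do not overlap. The second overlap through replicate 1 of the knockdown (1881), and the other 3 knockdown libraries (2288 to 2390.3) lie above every control. Without replicate 1 the mean sum of the simple keratins was 2349.6, and their mean share was 64.1%.

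The ratio of KRT8 to KRT5, each the main type II chain of its class, was 0.69, 0.69, 0.69 and 0.70 in the controls and 1.11, 1.31, 1.27 and 1.30 in the knockdown libraries. The ratio of KRT18 to KRT14, a type I chain of each class, was 20.5 ± 0.788 in the controls and 47.7 ± 1.70 in the knockdown (SD, n = 4 each). In replicate 1 it was 49.0. This ratio depends on the choice of KRT14, which had the largest fall of the basal keratins (log2 change -1.14). KRT15, the more abundant basal type I chain (79.2 against 52.3 FPKM in the controls), fell less (-0.28), and no ratio to it was taken. Within the simple pair KRT8 over KRT18 was 0.898 ± 0.00655 and 0.950 ± 0.0511, with overlap. Within the basal pair KRT5 over KRT14 was 26.6 ± 0.852 and 36.4 ± 1.92, without overlap. Against the type I chains KRT14, KRT15 and KRT17 together, KRT5 went the other way, from 2.61 ± 0.0403 to 2.19 ± 0.0653, also without overlap. Summed over the 10, type II over type I was 1.47 ± 0.00865 in the controls and 1.27 ± 0.0261 in the knockdown, also without overlap. The 10 genes together took 0.749% of all counts in the controls and 0.647% in the knockdown.

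**Figure D4:**
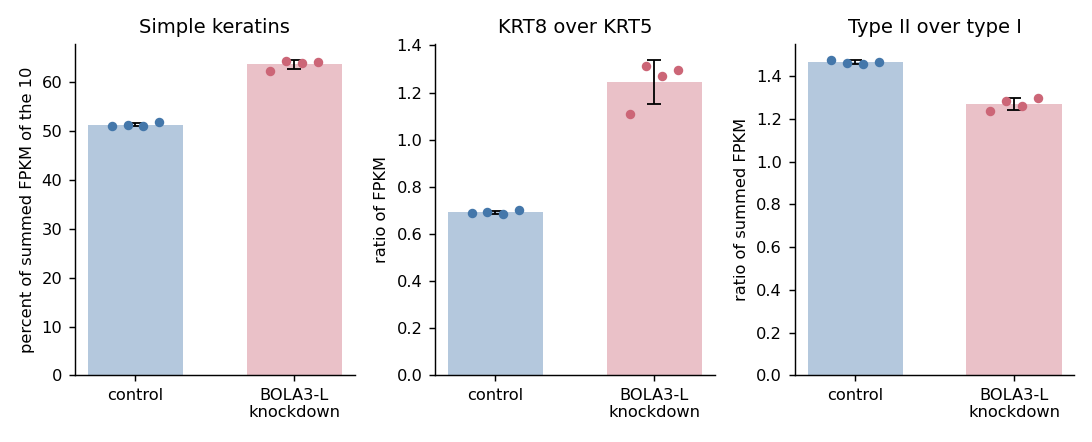
Simple keratins as a percent of the summed FPKM of the 10 keratins, the ratio of KRT8 to KRT5 and the ratio of type II to type I keratins (vertical axes) in control and BOLA3-L knockdown libraries. Bars are means, error bars are SD (n = 4) and points are libraries; the groups do not overlap in any of the 3 panels.

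Beyond the 10, the table lists 26 keratin genes, of which 22 stayed under 1 CPM in every library. Of the 4 that were tested, 0 rose and 1 fell, against 15.0% and 15.6% of all genes. It was KRT81, a hair keratin, at 2.11 ± 0.213 CPM in the controls and 1.05 ± 0.377 CPM in the knockdown (SD, n = 4 each; log2 change -0.996, SE 0.229, edgeR adjusted p = 0.00283), with no overlap. KRT86, another hair keratin, had a log2 change of -0.37 (SE 0.353, edgeR adjusted p = 0.463). KRT10, the type I chain of suprabasal skin cells, was at 20.6 and 22.2 CPM (0.10, adjusted p = 0.239). KRT80, a type II chain, was at 198 and 199.6 CPM (log2 change 0.01, adjusted p = 0.832) and was the most abundant of these 4. KRT13 and KRT4, the pair of the differentiated esophageal lining, were near the floor: KRT13 had 3 to 9 counts in the controls and 1 to 7 in the knockdown libraries, and KRT4 had 1 in each control and 3 to 6 in the knockdown libraries. KRT19, a type I chain of simple epithelia, had at most 7 counts in any library. Without replicate 1 the filter also passed the hair keratin KRT34, which was then called higher (1 of these keratins higher and 1 lower, against 21.2% and 21.5% of all genes; log2 change 1.26, edgeR adjusted p = 0.0226; 3 to 10 counts in the controls and 8 to 16 in the knockdown libraries).

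Of 15 intermediate filament genes outside the keratins, 11 are in the table and 7 were tested, and 2 rose and 2 fell, against 15.0% and 15.6% of all genes tested. Their median log2 change was -0.15, beside 0.0014 over all genes tested. SYNM, which encodes synemin, a filament protein that joins other filaments to the membrane, was at 14.5 ± 0.961 CPM in the controls and rose to 25.1 ± 2.15 CPM (SD, n = 4 each), a log2 change of 0.80 (SE 0.0738, edgeR adjusted p = 2.2e-07). VIM, which encodes vimentin, the filament protein of mesenchymal cells, fell from 4.36 ± 0.592 to 1.61 ± 0.330 CPM (-1.43, SE 0.172, edgeR adjusted p = 5.1e-06). In both genes the groups did not overlap. BFSP1, a lens filament protein, fell by 0.57 on the log2 scale (edgeR adjusted p = 0.0120). LMNB2, a chain of the nuclear lamina, rose by 0.17 (adjusted p = 0.0121) with overlapping groups. LMNA, the gene of lamins A and C, was at -0.15 (adjusted p = 0.102), and PRPH, a filament protein of neurons, at -0.67 (adjusted p = 0.288). Without replicate 1 LMNA was also called lower, and the counts became 2 and 3, against 21.2% and 21.5% of all genes.

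Of 18 genes whose proteins anchor keratin filaments or bind to keratins, all 18 were tested. In the knockdown 1 rose and 7 fell (15.0% and 15.6% over all genes), and the median log2 change was -0.03. DST, which encodes the plakin that ties keratin filaments to hemidesmosomes, was at 751 ± 29.5 CPM in the controls and fell to 556 ± 29.5 CPM (SD, n = 4 each), a log2 change of -0.43 (SE 0.0397, edgeR adjusted p = 1.8e-07). The desmosomal plaque protein PKP1 fell by 0.30, the plakin MACF1 by 0.26, the adaptor protein SFN by 0.25, the small heat shock protein HSPB1 by 0.16 and the plaque protein PKP2 by 0.15 on the log2 scale, with edgeR adjusted p from 4.8e-05 to 0.00307. In each of these 6 genes all knockdown libraries lay below all controls. DSP, which encodes the desmosomal plakin that binds keratin filaments, fell by 0.10 (adjusted p = 0.0169), and PPL, a plakin of the cornified envelope, rose by 0.14 (adjusted p = 0.0279). Without replicate 1 the counts were 5 higher and 9 lower (21.2% and 21.5% over all genes): PKP3, EVPL, STUB1 and FAM83H were added above and PLEC and YWHAZ below.

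Of 20 genes listed as regulators of keratin genes, most of them transcription factors, 18 were tested, and 2 rose and 6 fell (15.0% and 15.6% over all genes), with a median log2 change of -0.07. SOX2 and GLI2 were too low to test. EHF, an epithelial ETS factor, had the largest change of the list, -2.33 on the log2 scale (SE 0.0895, edgeR adjusted p = 2.2e-12), with 28.5 ± 0.671 CPM in the controls against 5.68 ± 0.946 CPM in knockdown libraries (SD, n = 4 each). TP63, the factor that maintains basal cells of stratified epithelia and acts on KRT5 and KRT14, fell from 309 ± 5.33 to 219.9 ± 11.7 CPM (log2 change -0.49, SE 0.0390, edgeR adjusted p = 3.2e-08). GATA3, a factor of epidermal and luminal cells, rose from 18.8 ± 0.855 to 27.8 ± 1.40 CPM (0.56, SE 0.0617, edgeR adjusted p = 1.6e-06). In all 3 the groups did not overlap. JUN, a subunit of AP-1, fell by 0.48, and the Krüppel-like factors KLF4 and KLF5 fell by 0.53 and 0.32 on the log2 scale, with edgeR adjusted p from 4.7e-05 to 0.00028. Whether any of these factors moved the keratins was not tested. Without replicate 1 the counts were 3 higher and 8 lower (21.2% and 21.5% over all genes), with ELF3 added above and SP1 and NFE2L2 below.

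**Figure D5:**
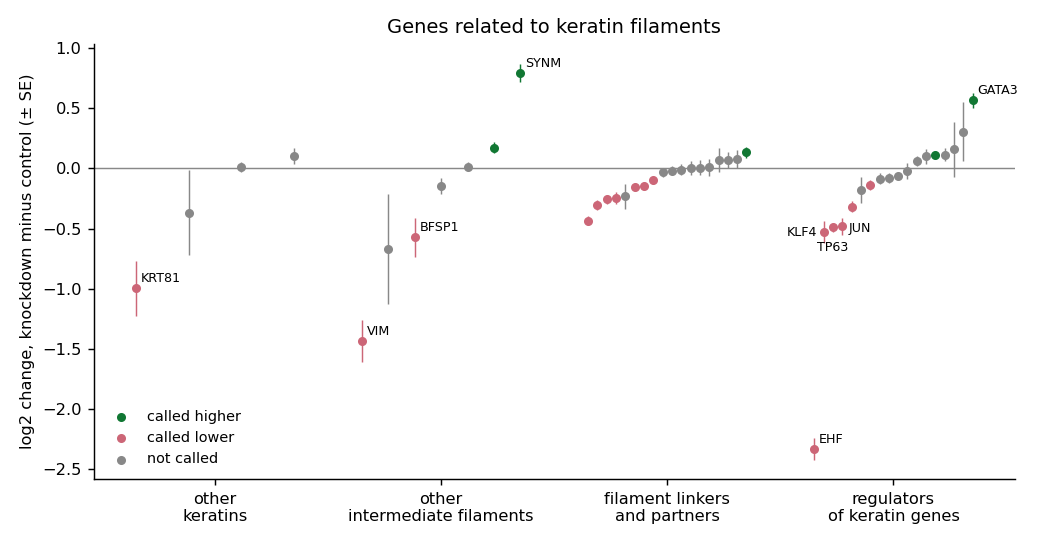
Log2 change, knockdown minus control (vertical axis), of the tested genes of 4 lists: other keratins, other intermediate filaments, filament linkers and partners, and regulators of keratin genes. Points are genes in order of their change, bars are the SE of the fit (n = 4 libraries a group) and colours give the call; called genes with an absolute change over 0.45 are named.

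Markers of the labelled cell type and of other cells were read in the same libraries. All 8 squamous markers were tested, and 7 fell, where 15.6% of all genes did, among them KRT5 and KRT14, which are members, with TP63, PKP1 and SFN given above, DSG3 (-0.31) and SERPINB5 (-0.19). DSC3 was at -0.04 (edgeR adjusted p = 0.449). Their summed level was 4525 to 4573 CPM in the controls and 2842 to 3180.1 CPM in the knockdown libraries. Most of that sum was KRT5 (means of 3132 CPM in the controls and 1936 CPM in the knockdown), so it largely repeats the keratin values. The columnar markers, of which 5 are in the table, summed to 0.872 to 1.43 CPM and 0.4998 to 1.10 CPM, and KRT20 had at most 1 count in any library. The fibroblast markers summed to 9.97 to 14.8 CPM and 4.53 to 7.26 CPM, nearly all of it COL1A1, which fell (-1.28, edgeR adjusted p = 3.4e-05), and the other 7, among them LUM, which also fell (-1.53, edgeR adjusted p = 0.0166), were under 1 CPM throughout. The endothelial markers summed to 17.1 to 19.7 CPM and 10.6 to 12.5 CPM, mostly EGFL7, which fell (-0.89, edgeR adjusted p = 1.9e-07), while CDH5 rose from 0.993 to 1.71 CPM (0.79, edgeR adjusted p = 0.0120), and the other 5 in the table were under 1 CPM throughout. The leukocyte markers summed to 77.6 to 84.6 CPM and 73.9 to 79.5 CPM, nearly all of it CD68, with the other 5 under 1 CPM throughout. VIL1, KRT20, CD3E and PECAM1 had no count in any control library, and CDX1, COL1A2, FAP, PTPRC and LYZ had none in any knockdown library. The part of any of these markers in the keratin values was not tested.

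For 3 keratins, the genes with the most similar pattern were found among the 10134 genes that averaged 5 CPM or more, by Pearson's r of log2 CPM over the 8 libraries. All such values are descriptions and hold any difference between the groups, which these libraries share. The nearest to KRT5 were RAC2 (r = 0.999), a small GTPase, TGM2 (0.998), a transglutaminase, and SREBF1 (0.995), a factor of lipid synthesis. The nearest to KRT6A were GLUL (0.987), glutamine synthetase, MACROH2A1 (0.985), a variant histone, and MOSPD2 (0.984). The nearest to KRT8 were MBD3 (0.983), METRNL (0.981) and ALKBH2 (0.981), of which none passed the test between the groups (edgeR adjusted p = 0.193, 0.133 and 0.363). KRT8 did not pass it either. In BOLA3-L knockdown replicate 1 KRT8 was at 1726 CPM, against 2202 to 2348 CPM in the other knockdown libraries. How far that library carries these values of r was not tested.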

How the data were processed

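RNA of 4 control and 4 BOLA3-L knockdown libraries was sequenced as 150 bp paired-end reads and filtered with fastp, per the labels. The genome build is hg38 per the submitters' processing notes. Aligner, counter and gene annotation were not given in the sources used here. Raw counts per gene were deposited by the authors, together with, per the file headers, FPKM values. Dividing the count by 1 length per gene and by the library total returns all 110558 nonzero FPKM values to within 1e-06.

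Counts were fitted over all genes with edgeR 4.0.16 (R 4.3.3; TMM, filterByExpr, robust quasi-likelihood F-test) and adjusted by Benjamini-Hochberg, threshold 0.05. The SE is the absolute log2 change over the square root of F, and 95% intervals use the degrees of freedom of the fit. Alternatives were other size factors and filters, DESeq2 1.42.0, limma 3.58.1 on log2 FPKM (pseudocount 1 or 0.1), a block for the replicate number, each library left out and, chosen after seeing the data, GC-corrected offsets (GC content known for 97.8% of tested genes). The edgeR step was tested on simulated data, with 50 genes planted at each fold and no library skewed by GC content. It recovered 62% of 1.25-fold, 90% of 1.5-fold, 94% of 2-fold and 100% of 3-fold changes. It also called 8 unchanged genes. Changes as small as those of KRT8 and KRT18 (111.8% and 105.3% of control) were not simulated. Sequence was compared between GENCODE v29 transcripts with Python 3.11.15.

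The members and lists were chosen with earlier results of these data known. Named genes are the 10 members, BOLA3, up to 6 tested genes of each of 4 lists by smallest p, and the 3 genes most like KRT5, KRT6A and KRT8; others named beside a changed count or a list were chosen after their values were seen.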

Additional observations from a re-analysis of the deposited data

Results flagged for a closer look

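In 48 sets of 4 libraries (levels of the members and the ratios between them), the library at either end was compared with the others by Dixon's criterion at its 95% level, which chance meets in about 1 set in 20, and 3 met it. KRT15 in BOLA3-L knockdown replicate 1, at 110.3 CPM, lay below the 137.1 to 138.8 CPM of the other knockdown libraries. KRT17 in the same library, at 406.6 CPM, lay below their 478.1 to 491.3 CPM. KRT6B in control replicate 4, at 0.304 CPM, rests on 10 counts against 2 or 3 in the other controls.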

How the results depend on the processing

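The 6 basal and stress keratins called lower were 6 in all 19 alternatives, and no tested member changed direction in any. The count called higher was 1 with GC-corrected offsets (KRT18), 2 with these offsets and without BOLA3-L knockdown replicate 1 (KRT8 and KRT18), 0 to 2 over the fits that left out each library, where only the fit without that replicate gave 2, and 0 in the others. With the replicate block 6 members were lower and 0 higher, KRT8 was at 0.15 (edgeR adjusted p = 0.0695), and 3392 genes were called in place of 3630. Same-numbered libraries deviated together by r of -0.044 to 0.088, and differently numbered ones by -0.070 to 0.069. These values show no clear pairing by number. They do not settle whether libraries were paired, since the deviations also hold the GC trend of BOLA3-L knockdown replicate 1. Summed CPM in place of summed FPKM put the simple keratins at 46.9% of the 10 in the controls and 59.8% in the knockdown. KRT14 and KRT16 take the value -0.48 when summed with KRT17, and -1.13 when summed with each other. The number of members called was not recomputed on summed rows, which change what is counted. KRT6B was tested only without a filter, where edgeR gave -1.11 (adjusted p = 0.302). Depth limits KRT6B and the keratins under 10 counts.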

Other observations

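KRTAP2-3, a gene of the hair keratin-associated proteins in the type I keratin region, was chosen after its values were seen. It had 42, 30, 35 and 38 counts in the control libraries and 139, 134, 139 and 142 counts in the knockdown libraries. The controls averaged 1.13 ± 0.173 CPM and the knockdown libraries 4.10 ± 0.254 CPM (SD, n = 4 each), a log2 change of 1.86 (SE 0.164, edgeR adjusted p = 1.1e-07), and the groups did not overlap. Near-identical copies of this gene exist, so its count is uncertain. Of the keratins too low to test, KRT78, a type II chain, had 0, 1, 0 and 0 counts in the controls and 4, 3, 3 and 4 in the knockdown libraries, and KRT4 had 1, 1, 1 and 1 and 4, 3, 3 and 6; both were chosen after their values were seen, and most values lie at or near the floor of 3 counts.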
